A study of Mus musculus with 64 samples.

Results

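The expression of 5 genes of intestinal sugar handling was examined in the proximal colon of the BXD mouse panel under a high-fat diet (HFD) and a chow diet (CD). They were chosen by name, by a rule that sets no threshold on their values, and all 5 were among the 19503 genes measured. Slc5a1 encodes SGLT1, which carries glucose and galactose across the brush border with sodium. Slc2a2 encodes GLUT2, which moves glucose, galactose and fructose out of the enterocyte at its base, and Slc2a5 encodes GLUT5, the fructose carrier of the brush border. Khk encodes ketohexokinase, the first enzyme of fructose breakdown, and Mlxipl encodes ChREBP, a transcription factor that is activated by sugar metabolites. The question was whether these genes were lower on HFD, which holds much less carbohydrate than CD, and in which strains.

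Male mice of 32 inbred strains, 30 of them BXD and the other two the founders C57BL/6J and DBA/2J, were fed HFD (60.3% of energy as fat and 21.4% as carbohydrate) or CD (18% as fat and 58% as carbohydrate) from 8 to 29 weeks of age. BXD strains descend from crosses of C57BL/6J with DBA/2J, so each is a fixed mosaic of both genomes. Mice were fasted during the day and refed their own diet for 4 h before the proximal colon was taken, and RNA of about 5 mice of a strain and diet was pooled and run on 1 Clariom S array. This gave 64 arrays, 32 on HFD and 32 on CD, 1 per strain and diet, with no second pool of any strain on the same diet. Fat and carbohydrate changed together between the diets, and the authors name fiber content as another factor that may contribute. What any of these did alone cannot be told apart. The kind of carbohydrate in each diet was not compared.

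In the small intestine, disaccharidases release glucose, galactose and fructose from food sugars and starch products, SGLT1 and GLUT5 take them into the cell, and GLUT2 passes them on to the blood. Ketohexokinase commits fructose to breakdown through its phosphate. ChREBP binds carbohydrate response elements, pairs of E-box motifs, together with its partner Mlx, and in mouse intestine it is needed for the normal response of fructose genes to dietary fructose. Most free sugar is taken up before it reaches the colon.

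ChREBP acts through pairs of E-box sequences, and the promoter regions were searched for single E-boxes only. CACGTG, an E-box that reads the same on both strands, was looked for in the 250 bases before each start that the RefSeq promoter table gives for the 5 genes (GRCm38.p6). It stood once in 3 of the 6 windows and in 6.02% of all 32851 such windows. Those 3 are given from 5′ to 3′ with CACGTG in capitals.
Slc5a1, chr5:33103969-33104218, + strand: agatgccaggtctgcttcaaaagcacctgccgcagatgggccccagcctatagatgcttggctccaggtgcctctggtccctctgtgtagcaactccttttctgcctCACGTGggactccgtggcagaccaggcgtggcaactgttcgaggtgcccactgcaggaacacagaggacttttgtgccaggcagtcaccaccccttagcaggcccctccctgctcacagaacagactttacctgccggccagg
Khk, chr5:30921309-30921558, + strand: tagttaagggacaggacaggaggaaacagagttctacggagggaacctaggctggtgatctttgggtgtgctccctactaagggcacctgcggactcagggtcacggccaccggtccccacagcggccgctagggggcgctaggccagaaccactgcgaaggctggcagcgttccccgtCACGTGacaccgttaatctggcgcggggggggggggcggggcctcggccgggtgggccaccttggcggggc
Mlxipl, chr5:135089640-135089889, + strand: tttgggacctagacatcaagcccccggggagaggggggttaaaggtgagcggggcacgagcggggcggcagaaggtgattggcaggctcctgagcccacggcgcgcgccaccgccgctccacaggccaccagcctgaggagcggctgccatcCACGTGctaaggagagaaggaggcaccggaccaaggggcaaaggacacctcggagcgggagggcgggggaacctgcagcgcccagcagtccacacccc
The motif began 143 bases before the start of Slc5a1, 71 bases before that of Khk in that table and 98 bases before the upstream start of Mlxipl. For Khk, the gene record begins 123 bases upstream of the start used here, so its motif lies 52 bases inside that record. Mlxipl has a pair of annotated starts 17.001 kb apart, and the upstream one belongs to the first exon of the shorter, more active form, ChREBP-β. The window of its downstream start held no CACGTG, nor did those of Slc2a2 (chr3:28697653-28697902) and Slc2a5 (chr4:150119094-150119343). A match describes these letters only, and binding was not measured. Pairs of E-boxes and their spacing were not searched for, so a match does not mark a carbohydrate response element.

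Before the results, the arrays themselves are described. Values were log2 intensities, and the median over all probesets ran between 6.58 and 6.77 on the HFD arrays and between 6.54 and 6.74 on the CD arrays. The 13 measured markers of colonocytes, the absorptive cells of the labelled tissue, among them Car1 and Slc26a3, had a mean level of 14.2 to 15.1 over the HFD arrays and 13.9 to 15.4 over the CD arrays. In 4 arrays, HFD of BXD49, BXD69 and BXD39 and CD of BXD48a, the Paneth cell gene Defa24 reached 15.77 to 19.57, and it stayed at or below 9.76 in the other arrays. The mean of 18 small intestinal markers was highest in the same 4 arrays, with 13.61, 11.99 and 9.56 on HFD in BXD49, BXD69 and BXD39, and 11.59 on CD in BXD48a, against medians of 8.84 over HFD and 8.65 over CD. Strain labels were set against 11 genes chosen for a correlation of 0.9 or more between the HFD and CD arrays of the labelled BXD strains, a choice that itself favours matches with the own label. By these genes, 27 of 32 HFD arrays were most like the CD array of their own strain and 27 of 32 CD arrays were most like their own HFD array. The exceptions carried the labels BXD48, BXD48a, BXD87, BXD89, C57BL/6J and DBA/2J. Over these genes the HFD array labelled C57BL/6J correlated at 0.96 with the CD array labelled DBA/2J and at 0.16 with the CD array of its own label, and the arrays labelled DBA/2J correlated at −0.79 with each other, so the strain of the parental arrays was taken from the labels with this doubt.

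None of the 5 genes was called lower or higher on HFD. In limma, fitted on all genes, 0 of 5 passed an adjusted p of 0.05, and 0 of 5 had an unadjusted p under 0.05, against 13.6% of all genes. The share of all genes called lower was 1.44%, the share called higher 0.743% and the share called in either direction 2.18%. With strain as a block, 3.52% of all genes were called and again 0 of 5. The median log2 fold change of the 5 genes was 0.01 and that of all genes 0.00. The 95% intervals below give the range of mean change that these 32 pools per diet leave. They and the p-values rest on the variation between arrays, in which strain, pooled mice and array error cannot be told apart.

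Slc5a1 had a lowest value of 11.19, a median of 11.85 and a highest value of 13.89 on HFD, against 11.15, 11.95 and 13.20 on CD. The groups overlapped over almost their whole range, and the highest arrays were BXD49 on HFD and BXD48a on CD, both rich in Defa24. Means were 11.93 ± 0.46 on HFD and 11.92 ± 0.42 on CD (SD, n = 32 each). The log2 fold change was 0.01 ± 0.11 (SE, limma, adjusted p = 0.99), with a 95% interval of −0.21 to 0.22, that is 0.864-fold to 1.17-fold. SGLT1 transcript was lower on HFD in 16 strains and higher in 16.

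Slc2a2 ran from 3.85 over a median of 5.56 to 7.83 on HFD, against 4.80, 5.66 and 6.37 on CD. The lowest and the highest of all 64 arrays were HFD arrays, BXD55 and BXD49, and the CD arrays lay between them. Slc2a2 averaged 5.65 ± 0.67 on HFD and 5.64 ± 0.44 on CD (SD, n = 32 each). The log2 fold change was 0.01 ± 0.14 (SE, limma, adjusted p = 0.984) and its interval −0.26 to 0.29, or 0.834-fold to 1.22-fold. The table gives no detection call, so whether Slc2a2 was above background is not known. GLUT2 is also a gene of pancreatic islets and liver. The mean of 8 pancreas markers was highest in both BXD73 arrays, 12.15 on HFD and 14.24 on CD, where Slc2a2 was 5.16 and 5.11. That of 7 liver markers was highest on HFD in BXD49, at 7.14. Most of the 8 pancreas markers are of exocrine cells, and Ins2, an insulin gene, reached at most 5.83 on HFD and 6.10 on CD. A part of islets in the Slc2a2 values was not tested.

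Slc2a5 had values of 4.96, 5.97 and 8.40 (lowest, median and highest) on HFD, against 5.21, 5.99 and 7.32 on CD. BXD49 was again the highest HFD array, and BXD48a was high on both diets, with 7.42 on HFD and 7.32 on CD, though only its CD array was rich in Defa24. The means were 6.01 ± 0.68 on HFD and 6.10 ± 0.46 on CD (SD, n = 32 each). The log2 fold change of this fructose carrier was −0.09 ± 0.14 (SE, limma, adjusted p = 0.857), with an interval of −0.37 to 0.19, or 0.775-fold to 1.14-fold. Slc2a5 was lower on HFD in 20 of 32 strains, by more than 0.5 in 10 of them, and higher by more than 0.5 in 4. Both medians of Slc2a5 lay below 6.68, the median of the mean levels of all genes. With no detection call, whether it was above background is not known.

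Khk gave 8.26, 8.57 and 9.56 (lowest, median and highest) on HFD, against 8.09, 8.66 and 9.34 on CD. The groups covered nearly the same range. Ketohexokinase transcript averaged 8.66 ± 0.31 on HFD and 8.63 ± 0.32 on CD (SD, n = 32 each). Its log2 fold change was 0.03 ± 0.08 (SE, limma, adjusted p = 0.911), and the interval of −0.13 to 0.19, or 0.916-fold to 1.14-fold, was the narrowest of the 5. It was lower on HFD in 15 strains and higher in 17.

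Mlxipl ran from 6.69 over a median of 7.86 to 9.04 on HFD, against 6.86, 7.47 and 8.89 on CD. The ranges overlapped, with the HFD median above the CD median. Means were 7.78 ± 0.49 on HFD and 7.62 ± 0.47 on CD (SD, n = 32 each), and the log2 fold change of 0.16 ± 0.12 (SE, limma, adjusted p = 0.603) had an interval of −0.08 to 0.39, or 0.949-fold to 1.31-fold. ChREBP transcript was lower on HFD in 11 strains and higher in 21. The array has 1 probeset for the gene, and which of its starts gave the signal was not analysed here.

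**Figure D1:**
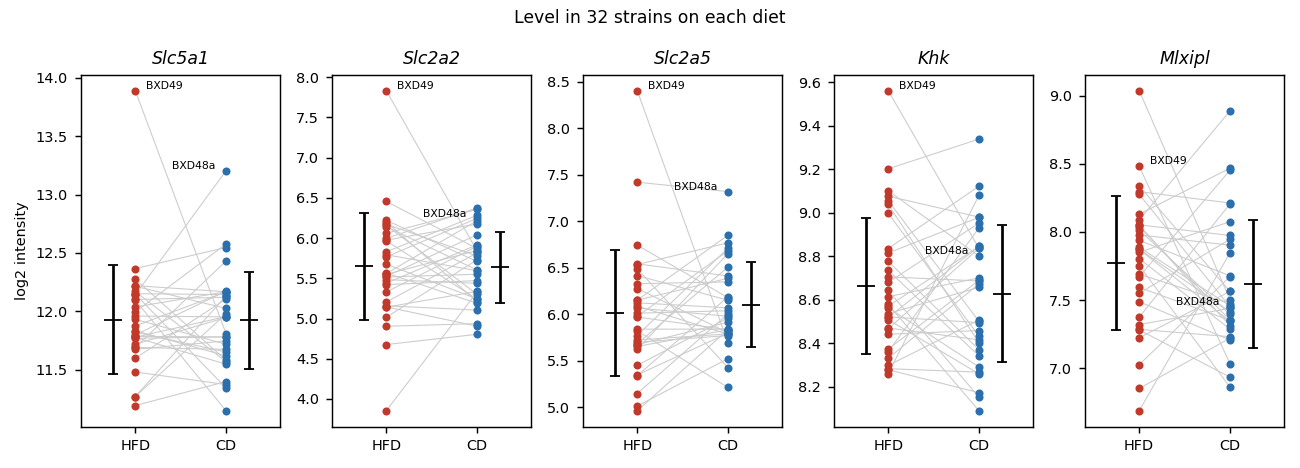
Log2 intensity (vertical axis) of Slc5a1, Slc2a2, Slc2a5, Khk and Mlxipl in the 32 HFD arrays (red, left) and 32 CD arrays (blue, right), 1 point per strain, with grey lines joining the arrays of a strain and black bars for the mean ± SD. The means differed by 0.16 or less in each gene, and BXD49 was the highest HFD array in the first 4 panels.

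In single strains the differences lay on both sides of 0. Differences between the HFD and the CD array of a strain ran from −1.06 to 2.08 for Slc5a1, from −1.48 to 1.99 for Slc2a2, from −1.03 to 2.71 for Slc2a5, from −0.82 to 0.73 for Khk and from −1.16 (the arrays labelled C57BL/6J) to 1.53 for Mlxipl. Their SD over strains was 0.59 for Slc5a1, 0.64 for Slc2a2, 0.72 for Slc2a5, 0.38 for Khk and 0.64 for Mlxipl, and the median SD of all genes was 0.52. Thus 89% of all genes varied less than Slc2a5 in this difference, while 9.91% varied less than Khk. The spread of Slc2a5 includes BXD49, at 2.71, while the next highest difference was 1.06, in BXD90. BXD49 also had the highest difference for Slc5a1 and Slc2a2, and no SD was taken without it. With 1 pool per strain and diet, the error of a single difference is not known, and no strain was tested alone. Differences and counts of strains follow the labels. In BXD87, BXD89, C57BL/6J and DBA/2J the HFD and CD arrays correlated at 0.46, 0.64, 0.16 and −0.79 over the 11 genes used to check labels. Whether both arrays of these pairs come from the labelled strain is in doubt.

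The highest value of Slc5a1, Slc2a2, Slc2a5 and Khk over both diets belonged to the HFD array of BXD49, a strain in which all 5 genes were higher on HFD. There Slc5a1 was higher by 2.08, Slc2a2 by 1.99, Slc2a5 by 2.71, Khk by 0.73 and Mlxipl by 1.45 on the log2 scale. Its HFD array was also the richest in small intestinal markers, and the part of these markers in this strain was not tested. In BXD48a the CD array was rich in these markers, and its Slc5a1 difference of −1.06 was the lowest of any strain for that gene. Its other differences went both ways, with −0.48 for Slc2a2, 0.10 for Slc2a5, 0.30 for Khk and 0.82 for Mlxipl. For the other HFD arrays rich in Defa24, the Slc5a1 difference was 0.60 in BXD69 and −0.38 in BXD39. All 5 genes were lower on HFD in BXD11 and BXD40. In BXD11 the differences were −0.94 for Slc2a5 and −0.78 for Mlxipl but only −0.01 for Slc5a1, −0.13 for Slc2a2 and −0.14 for Khk. In BXD40 they lay between −0.52 for Slc2a2 and −0.21 for Khk. Of the other strains, 7 had 1 gene lower, 8 had 2, 9 had 3 and 5 had 4.

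For uptake and fructose breakdown taken alone, Slc5a1, Slc2a5 and Khk were all lower in 5 strains (BXD1, BXD11, BXD40, BXD48 and BXD51) and all higher in 3 (BXD12, BXD49 and BXD62). In BXD1 the differences were −0.71 for Slc5a1, −0.86 for Slc2a5 and −0.57 for Khk. In BXD48, Slc2a5 was lower by less than 0.01.

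**Figure D2:**
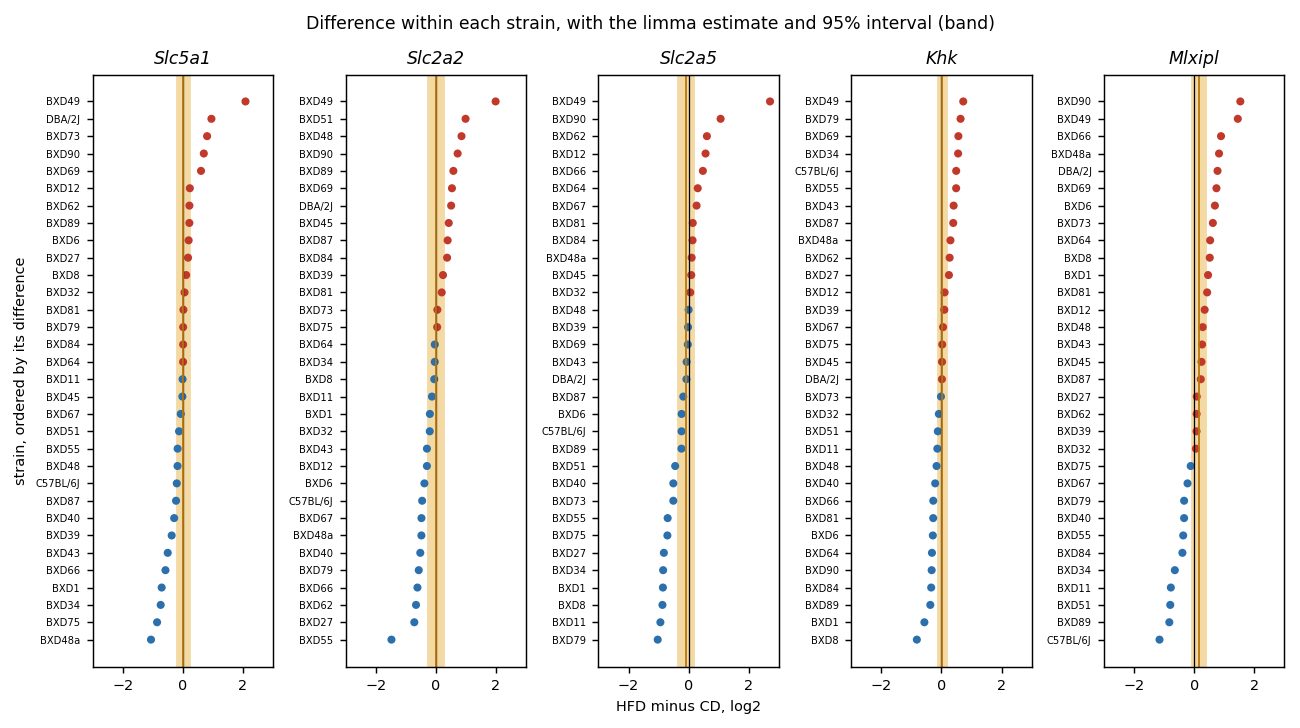
Difference between the HFD and the CD array of each strain on the log2 scale (horizontal axis), 1 point per strain ordered by its difference, red where higher and blue where lower on HFD. The band is the 95% interval of the limma log2 fold change, which includes 0 in all 5 panels, and single strains reach from −1.48 to 2.71.

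Small intestinal signal was set beside each gene because SGLT1, GLUT2 and GLUT5 are far more abundant in the small intestine than in the colon. Across the 32 HFD arrays, Slc5a1 correlated with the mean of the 18 markers at r = 0.74 (permutation p = 0.00065, adjusted 0.00317; rho = 0.44, p = 0.0116). On HFD, r was also 0.62 for Khk (permutation p = 0.00061, adjusted 0.00317; rho = 0.46, p = 0.009), 0.55 for Slc2a5 (permutation p = 0.0109, adjusted 0.0218; rho = 0.18, p = 0.329) and 0.55 for Slc2a2 (permutation p = 0.00822, adjusted 0.0205; rho = 0.08, p = 0.658). On CD, r was 0.62 for Slc5a1 (permutation p = 0.00095, adjusted 0.00317; rho = 0.27, p = 0.129) and 0.44 for Slc2a5 (permutation p = 0.0148, adjusted 0.0247; rho = 0.13, p = 0.473). The adjustment covers 10 relations. None of these 6 passed adjustment without the 2 strains farthest from the median of the markers. Without BXD49 and BXD69 on HFD, r was 0.34 for Slc5a1, 0.37 for Khk (permutation p = 0.0454, adjusted 0.223), 0.14 for Slc2a5 and −0.05 for Slc2a2. Without BXD32 and BXD48a on CD, r was 0.30 for Slc5a1 and 0.05 for Slc2a5.

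For Mlxipl no r passed adjustment. On HFD its r with the markers was 0.27 (permutation p = 0.138, adjusted 0.153; rho = 0.18, p = 0.318). On CD its r was −0.28 (permutation p = 0.117, adjusted 0.147), with a rho of −0.58 (permutation p = 6e-04), and without BXD32 and BXD48a its r was −0.47 (permutation p = 0.00791, adjusted 0.0791).

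Without the 4 arrays rich in Defa24, the log2 fold changes in limma were −0.02 for Slc5a1, −0.04 for Slc2a2, −0.14 for Slc2a5, −0.02 for Khk and 0.11 for Mlxipl. With the mean of the small intestinal markers as a covariate beside diet, they were −0.13 for Slc5a1, −0.11 for Slc2a2, −0.23 for Slc2a5, −0.03 for Khk and 0.14 for Mlxipl. The lowest of the 10 adjusted p was 0.418, that of Slc2a5 with the covariate. Of the markers themselves, 1 of 18 was higher in limma, Fabp6, the ileal bile acid binding protein, by 2.32 ± 0.53 (SE, adjusted p = 0.00641), and 0 were lower. Fabp6 was higher on HFD in 28 of 32 strains. With strain as a replicate block, Alpi (0.46, adjusted p = 0.0376) and Enpep (0.93, adjusted p = 0.0217) were also called higher, and Cyp3a11 (−0.40, adjusted p = 0.0254) lower. The sum of the 18 marker intensities was 17.0 to 20.8 on HFD and 17.2 to 19.2 on CD in log2, with medians of 18.2 and 18.3. Fabp2 alone had medians of 17.9 on HFD and 18.1 on CD, so it weighs heavily in that sum. The median log2 fold change of the 18 markers was 0.26. Among 8 Paneth cell markers 0 were called, and Mmp7 (0.74) was called higher with the block (adjusted p = 0.0338).

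**Figure D3:**
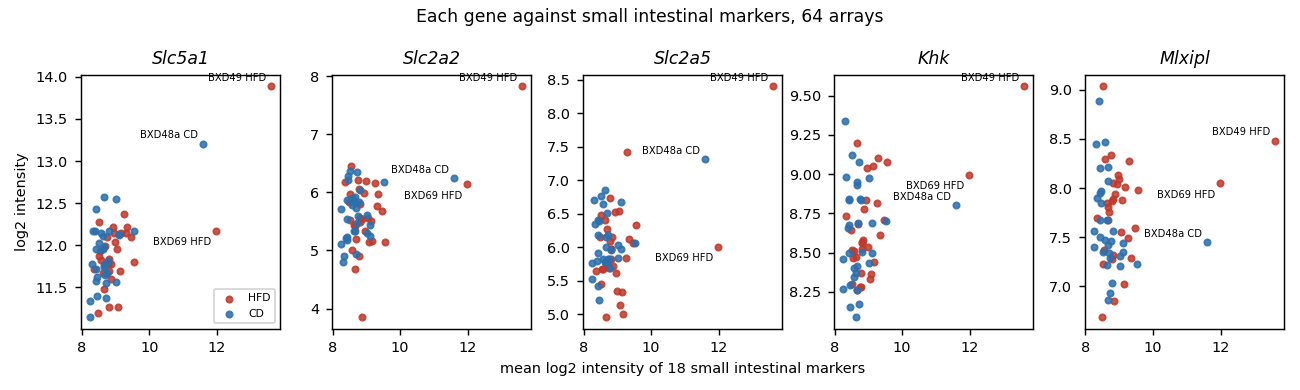
Log2 intensity of each gene (vertical axis) against the mean log2 intensity of 18 small intestinal markers (horizontal axis) in 32 HFD arrays (red) and 32 CD arrays (blue). BXD49 on HFD lies alone at 13.61 on the horizontal axis, and BXD69 on HFD and BXD48a on CD are the next, at 11.99 and 11.59.

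Some strains with doubtful labels were left out together. Without both parental strains, BXD87, BXD89 and BXD90, a set that keeps BXD48 and BXD48a and drops BXD90, whose own arrays matched, none of the 5 genes was called. Their log2 fold changes in limma were −0.05 for Slc5a1, −0.05 for Slc2a2, −0.12 for Slc2a5, 0.03 for Khk and 0.17 for Mlxipl, with adjusted p between 0.529 and 0.92.

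Whether the level of a gene followed the strain was read from both diets, and no relation passed adjustment. Over the 32 strains, the HFD and CD arrays correlated at r = 0.10 for Slc5a1 (permutation p = 0.568; rho = 0.16, p = 0.366), 0.24 for Slc2a5 (p = 0.178; rho = 0.25, p = 0.172), 0.29 for Khk (p = 0.112; rho = 0.22, p = 0.231) and 0.11 for Mlxipl (p = 0.556; rho = 0.20, p = 0.269). Slc2a2 had the highest r, 0.38 (permutation p = 0.0291, adjusted over the 5 relations 0.145; rho = 0.37, p = 0.0375). The median r of all genes was 0.14. Without the HFD array of BXD49, a setting chosen after its values were seen, r was 0.46 for Slc2a5 and 0.41 for Slc2a2, with adjusted permutation p of 0.0477 and 0.0499. BXD48a was the strain with high Slc2a5 on both diets, and BXD11 and BXD64 had low Slc2a2 on both, 4.68 and 4.90 on HFD and 4.80 and 4.94 on CD. Without the 2 strains farthest from the median, which included BXD48a for Slc2a5, r was 0.28 for Slc2a5 (permutation p = 0.14) and 0.43 for Slc2a2 (p = 0.0196).

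**Figure D4:**
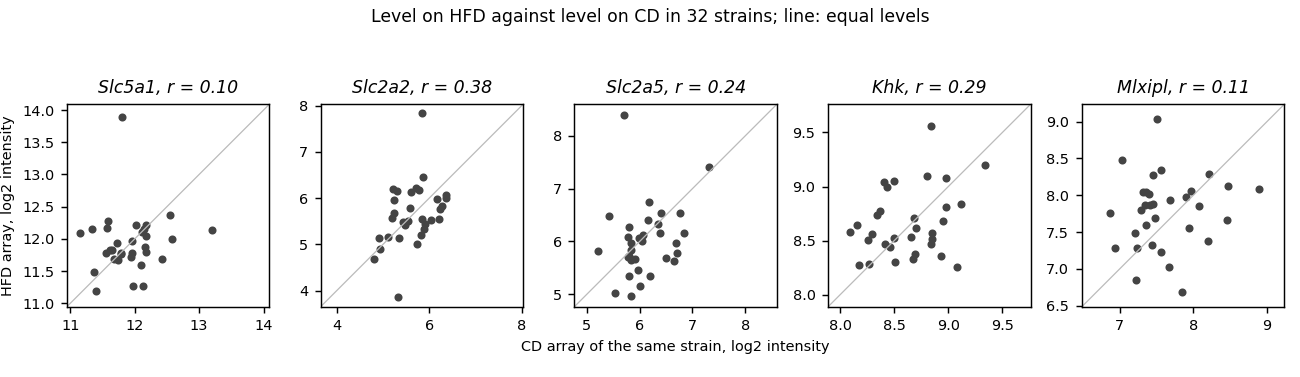
Log2 intensity in the HFD array (vertical axis) against the CD array of the same strain (horizontal axis) for each gene, 1 point per strain, with a line of equal levels. Pearson's r was 0.10 for Slc5a1, 0.38 for Slc2a2, 0.24 for Slc2a5, 0.29 for Khk and 0.11 for Mlxipl.

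Between the genes, 7 of 20 relations over strains passed an adjusted permutation p of 0.05. On HFD, Slc5a1 correlated with Slc2a2 at r = 0.62 (adjusted p = 0.0238; rho = 0.43, p = 0.0143), with Slc2a5 at 0.62 (adjusted p = 0.0238; rho = 0.28, p = 0.118), with Khk at 0.53 (adjusted p = 0.0238; rho = 0.27, p = 0.134) and with Mlxipl at 0.46 (adjusted p = 0.038; rho = 0.44, p = 0.0116), all by permutation. Also on HFD, Slc2a5 correlated with Khk at 0.48 (permutation p = 0.00655, adjusted 0.0327; rho = 0.25, p = 0.165) and with Slc2a2 at 0.44 (permutation p = 0.0173, adjusted 0.0495; rho = 0.18, p = 0.325). On CD, only Slc5a1 with Slc2a5 passed, at r = 0.42 (permutation p = 0.016, adjusted 0.0495; rho = 0.32, p = 0.0775). Without the 2 strains farthest from the median of the first gene, which on HFD always included BXD49, the 4 relations of Slc5a1 on HFD had r of 0.38, 0.31, 0.25 and 0.31, and 0 of the 20 passed. The lowest permutation p was then 0.0415, for Slc5a1 with Slc2a2, adjusted 0.506. On CD, Slc5a1 and Khk had r = 0.28 (permutation p = 0.116; rho = 0.33, p = 0.0661), and Slc2a2 and Khk −0.35 (p = 0.0485, adjusted 0.121; rho = −0.32, p = 0.0754).

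Over all 64 arrays, with each diet mean taken off, the genes whose pattern was most like each of the 5 were found by Pearson's r. The arrays share a probe set and their tissue make-up, so these are descriptions. Slc5a1 was closest to Slc13a1, a sulfate carrier of the brush border (r = 0.77), then to Enpep, an aminopeptidase of the brush border (0.74), and to Sis, sucrase-isomaltase (0.73). In the 60 arrays not rich in Defa24, these were 0.71, 0.48 and 0.52. Slc2a2 was closest to Fam71e2 (0.66), Abcc2, an export pump for conjugates (0.66), and Slc6a20b (0.64). For Slc2a5 they were Mgam, maltase-glucoamylase (0.62), Slc7a9, a subunit of a cystine carrier (0.59), and Susd2 (0.55), and 0.34, 0.30 and 0.33 in the 60 arrays. Khk was closest to Pbld1 (0.56), Camk4, a calcium-dependent kinase (0.55), and Prxl2b (0.54). For Mlxipl they were Lad1 (0.61), Rnf44 (0.61) and B4galnt1, a ganglioside enzyme (0.60), which stayed at 0.64, 0.63 and 0.60 in the 60 arrays. Of the 50 most like genes, both sets of arrays shared 42 for Mlxipl, 30 for Slc2a2, 14 for Khk, 8 for Slc5a1 and 6 for Slc2a5.

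Other transporters of the SGLT and GLUT families were measured for 17 of 18 listed genes, of which 0 rose and 1 fell. Beside this and the list counts below stand the shares of all genes called, 1.44% lower and 0.743% higher. The lists were chosen with earlier results of these data known, so these shares are no test of them. The gene that fell was Slc2a1, which encodes GLUT1, the widespread basal glucose carrier. Slc2a1 had values of 12.93, 14.00 and 14.88 (lowest, median and highest) on HFD, against 13.78, 14.36 and 15.84 on CD. HFD arrays lay toward the lower end of overlapping ranges, and 27 of 32 strains were lower on HFD. Its log2 fold change was −0.53 ± 0.11 (SE, limma, adjusted p = 0.00233), or 0.694-fold. The median over the 17 genes was 0.02, and Slc2a3, the GLUT3 gene, had 0.20 (adjusted p = 0.309). A fall of Slc2a1 beside no called change in the 5 genes does not by itself show that they differ, and that difference was not tested.

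Around fructose, 3 of 6 listed genes were measured and 1 fell, Akr1b8, an aldose reductase-like enzyme. Akr1b8 had 10.37, 11.50 and 13.88 on HFD, against 10.61, 12.77 and 14.14 on CD. The medians stood more than 1 apart within overlapping ranges, with 28 of 32 strains lower on HFD and a log2 fold change of −0.89 ± 0.20 (SE, limma, adjusted p = 0.00555). Tkfc, which acts after ketohexokinase on glyceraldehyde, had 0.17 (adjusted p = 0.616), and Glyctk, glycerate kinase, 0.06 (adjusted p = 0.831). None of the 4 disaccharidases was called: Mgam had 0.25 (adjusted p = 0.421), Sis 0.38 (adjusted p = 0.716), Lct, lactase, 0.06 (adjusted p = 0.864) and Treh, trehalase, 0.01 (adjusted p = 0.974). Sis had 0.18 without BXD49 and 0.10 without the 4 arrays rich in Defa24.

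The sweet taste receptor genes and their signalling partners had 0 of 5 called, with the smallest p for Trpm5, an ion channel of tuft and taste cells (0.28, adjusted p = 0.335), followed by Tas1r3 (0.16) and Tas1r2 (−0.08). Partners of ChREBP had 0 of 6 called, and Mlx, with which it binds DNA, had −0.18 (adjusted p = 0.296), Mxd4 0.20 (adjusted p = 0.183) and Max −0.17 (adjusted p = 0.566).

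Among 18 of 20 listed targets of ChREBP, 0 rose and 2 fell, both of lipogenesis. Scd1, the stearoyl-CoA desaturase, had 9.04, 9.89 and 10.90 (lowest, median and highest) on HFD, against 9.26, 10.27 and 11.61 on CD, and a log2 fold change of −0.49 ± 0.13 (SE, limma, adjusted p = 0.0358), lower in 25 of 32 strains. Me1, malic enzyme, had −0.49 ± 0.14 (SE, adjusted p = 0.0431) and was lower in 26. These calls were near the threshold: without a single strain, the call of Me1 was lost in 19 of 32 cases (adjusted p up to 0.0798, without BXD6) and that of Scd1 in 11 (up to 0.0657, without BXD81). Pklr, liver-type pyruvate kinase and a textbook target, had −0.07 (adjusted p = 0.819), Txnip −0.16 (adjusted p = 0.331), Fasn, fatty acid synthase, −0.16 (adjusted p = 0.566) and Arrdc4 −0.06 (adjusted p = 0.78). The median over the 18 was −0.07, and 6 of them had an unadjusted p under 0.05.

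In glycolysis, 17 of 22 listed genes were measured, with 0 higher and 2 lower. Aldoa, the aldolase that splits fructose bisphosphate, had 15.62, 16.11 and 16.71 on HFD, against 15.81, 16.39 and 16.72 on CD, a log2 fold change of −0.29 ± 0.07 (SE, limma, adjusted p = 0.00562) and lower values in 25 strains. Pfkfb4, a regulator of phosphofructokinase, had −0.35 ± 0.09 (SE, adjusted p = 0.03), and its call was lost in 6 of 32 cases without a single strain (adjusted p up to 0.0603, without BXD64). The median over the list was −0.07.

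The gene of these lists with the smallest p was Pck1, the cytosolic enzyme that opens gluconeogenesis. Pck1 had 10.30, 11.10 and 12.20 (lowest, median and highest) on HFD, against 10.88, 12.29 and 12.85 on CD. All 32 HFD arrays lay below the CD median, 28 of 32 strains were lower on HFD, and the log2 fold change was −0.94 ± 0.12 (SE, limma, adjusted p = 1.03e-06), or 0.52-fold. Slc37a2, a sugar phosphate exchanger, had −1.45 ± 0.40 (SE, adjusted p = 0.0377), lower in 25 strains, and its call was lost in 12 of 32 cases without a single strain (adjusted p up to 0.0681, without BXD12). The other 7 of 9 genes listed under gluconeogenesis and glucose release were not called, and the median was −0.04. A part of Slc37a2 in glucose release was not tested. In the pentose phosphate pathway 0 of 5 were called, with Rpia at 0.19 (adjusted p = 0.247), Pgls at 0.12 and Taldo1 at 0.11.

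Of 13 epithelial transcription factors that bind promoters of sugar genes, 0 were called. Hnf4g had the smallest p, with 0.41 ± 0.13 (SE, limma, adjusted p = 0.0945), then Nr1h3, the liver X receptor α (0.32, adjusted p = 0.274), and Foxa2 (−0.16). The call of Hnf4g as higher appeared without BXD48a (adjusted p = 0.0494). Without the parental strains, BXD87, BXD89 and BXD90, Hnf4g (0.49, adjusted p = 0.0294) and Nr1h3 (0.54, adjusted p = 0.0108) were called higher in limma, and so was Rpia (0.28, adjusted p = 0.0374).

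**Figure D5:**
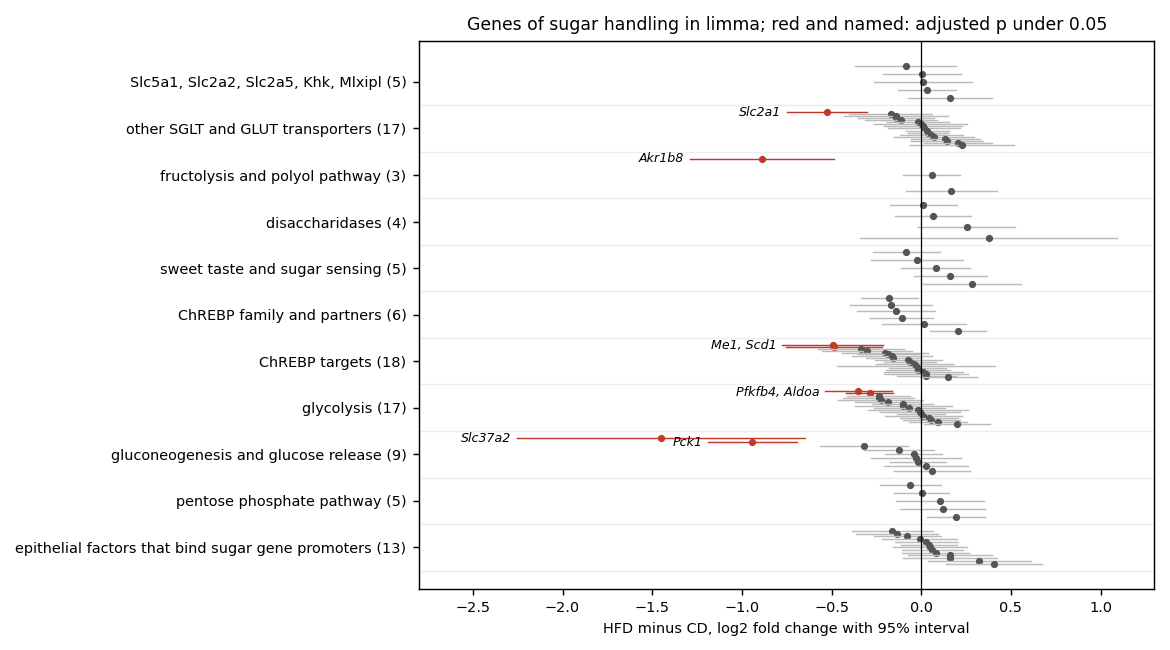
Log2 fold change of HFD against CD with its 95% interval (horizontal axis) for each measured gene of the lists named at the left, with the number of genes in brackets; red and named genes passed an adjusted p of 0.05 in limma. All 8 that passed were lower on HFD, from −1.45 for Slc37a2 to −0.29 for Aldoa, and the 5 genes in the top row lie between −0.09 and 0.16. Of all 19503 genes, 281 (1.44%) were called lower and 145 (0.743%) higher. The lists were chosen with earlier results of these data known, so these shares are no test of them.

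Other cell types that a pool of colon RNA can hold were followed by their markers. Colonocyte markers had 0 higher and 2 lower of 13, Cyp2c55 (0.502-fold, adjusted p = 0.000193) and Cldn4 (−0.59, adjusted p = 0.0447), and enteroendocrine markers 1 higher, Pyy (0.69), and 2 lower, Tph1 (−0.77) and Chga (−0.60), of 11. Goblet markers had 1 lower of 7, Spdef (−0.91), and adipose markers 1 higher of 6, Fabp4 (0.71). With strain as a block, Car4 (−0.77, adjusted p = 0.0207) and Slc16a1 (−0.28, adjusted p = 0.0336) of the colonocyte list and Cidec (−0.44, adjusted p = 0.0103) of the adipose list were also lower in limma, and Ptprc (0.44, adjusted p = 0.0305) of the immune list was higher. Tuft (5), liver (7), pancreas (8), smooth muscle (6) and immune (6) markers had 0 called without the block. The part of these in the values of the 5 genes was not tested, and in pooled tissue fewer cells of a type and less RNA per cell cannot be told apart.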

How the data were processed

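Deposited values were log2 intensities per probeset, which the authors made with Affymetrix Power Tools (gc-sst-rma-sketch). They state that probes in regions polymorphic among the strains were ignored and medians taken over probesets of a transcript. Whether this holds for the deposited table is not given in the sources used here, nor is a genome build. No detection call, slide or scan date was at hand, so such batches were not tested. Of 22199 probesets, 19570 with 1 symbol in the platform annotation were kept and 2629 without were left out. The median was taken for 55 genes with several probesets, giving 19503 genes.

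HFD was compared with CD with limma 3.58.1 in R 4.3.3 (lmFit, eBayes, Benjamini-Hochberg over all genes, threshold 0.05), without a strain term. CD and HFD arrays of 1 inbred strain form pairs by label. After the diet mean was taken off, 22 of the 32 pairs had a correlation over 0.1, with a median of 0.21 for own pairs and −0.01 for arrays of different strains. Correlations over strains were tested, two-sided, with 100000 permutations in Python 3.11.15. The limma fit and the permutation test were tried on simulated data. Alternatives were strain as a block, centring, quantile normalisation, a low-value filter, probeset handling, variance trend, left-out strains or arrays and a marker covariate.

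The 5 genes and all lists were chosen with earlier results of these data known. From each pathway list and the small intestinal and Paneth lists the text names the genes past adjusted p with or without the block, otherwise the 3 with the smallest p. Called genes of the other marker lists, Txnip, Pklr, Fasn, Arrdc4, Treh, Tkfc, Glyctk, Slc2a3, Ins2 and Fabp2 were named beyond this rule after their values were seen. Sequences and starts come from RefSeq. A pool hides the spread between its mice. Each p-value rests on the variation between arrays, where strain, pool and array error are not separated.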

Additional observations from a re-analysis of the deposited data

How the results depend on the processing

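No alternative called any of the 5 genes, so their signs below are those of estimates near 0. Slc5a1 turned negative with arrays centred on their median (−0.0057), in the 30 BXD strains (−0.018), without the parental strains, BXD87, BXD89 and BXD90 (−0.046), without BXD49 HFD and BXD81 CD (−0.065), without the 4 arrays rich in Defa24 (−0.024) and with the marker covariate (−0.13). Slc2a2 turned negative with quantile normalisation (−0.0030), without the parental strains, BXD87, BXD89 and BXD90 (−0.051), without BXD49 HFD and BXD81 CD (−0.060), without the 4 arrays (−0.043) and with the covariate (−0.11), and it was not among the upper 60% of genes by mean. Khk turned negative without the 4 arrays (−0.017) and with the covariate (−0.025), and so did Sis with the covariate (−0.20). Leaving out 1 strain at a time gave −0.061 (without BXD49) to 0.040 (without BXD48a) for Slc5a1 and −0.052 (without BXD49) to 0.060 (without BXD55) for Slc2a2, and without DBA/2J they were −0.025 and −0.0041. Slc2a5 stayed negative (−0.18, without BXD49, to −0.06) and Mlxipl positive (0.11 to 0.20) without any 1 strain.

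Of all genes, 145 were higher and 281 lower. The fit with a replicate block for strain gave 271 higher and 416 lower, and without the parental strains, BXD87, BXD89 and BXD90 the counts were 330 and 527. Without 1 strain the lower genes numbered 172 (BXD34) to 365 (BXD89). The block changed no call in the pathway lists. The calls of Me1, Scd1 and Slc37a2 were lost in 3, 2 and 2 of the settings other than single strains left out, and those of Slc2a1, Akr1b8, Aldoa, Pck1 and Pfkfb4 in 0 of them. Hnf4g, Nr1h3 and Rpia were called higher in 1 such setting each, that without the parental strains, BXD87, BXD89 and BXD90.

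Of relations, none between the 5 genes passed without the 4 arrays rich in Defa24 or without BXD49 HFD (0 and 0, against 7 of 20). With the small intestinal markers, 0 and 1 of 10 passed, against 6, and for level on HFD with level on CD 2 of 5 passed without BXD49 HFD (Slc2a2, r = 0.41, and Slc2a5, r = 0.46). Signs turned without the 4 arrays, all with adjusted p of 0.949 or more, for Slc2a2 with Khk (−0.085) and Khk with Mlxipl (−0.0048) on HFD, for Slc5a1 with Slc2a2 (−0.091), Slc2a2 with Slc2a5 (−0.0052) and Slc2a5 with Khk (−0.024) on CD, and for Mlxipl with the markers on HFD (−0.038). Slc2a2 with Khk also turned without BXD49 HFD (−0.071). With 1 pool per strain and diet, no spread within a strain was measured, and with no detection call the lower limit of the arrays for Slc2a2 and Slc2a5 is not known.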
